A study of Mus musculus with 19 samples.

Results

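The genes of the mitochondrial carrier family Slc25 were followed across 19 RNA sequencing libraries of mouse left prelimbic cortex. Members were taken by name, as every gene symbol made of Slc25a and a number with a count above 0 in at least 4 libraries. All 47 symbols of this kind in the count table met the rule, out of 20938 genes in the table (0.224%). Symbols of the same protein family under other names, such as Ucp2, were not members.

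The libraries fell into 4 groups. SCZ+c-MSST (n = 4) and SCZ (n = 4) mice had received MK-801 at 0.2 mg/kg by daily intraperitoneal injection for 2 weeks. Control+c-MSST (n = 5) and Control (n = 6) mice had received saline. MK-801 blocks the NMDA receptor, a glutamate-gated channel, and is used in rodents to model features of schizophrenia. In the c-MSST groups, ferumoxytol, an iron oxide nanoparticle preparation, was placed in the left prelimbic cortex by 1 stereotactic injection, and a pulsed magnetic field was applied. Tissue was collected on the third day after surgery. That day is recorded for libraries of all 4 groups, but the operation or injection that SCZ and Control mice had is not stated. If there was none, a comparison of c-MSST holds surgery and injection as well. No label gives strain, sex or batch, or says that libraries of a group came from separate mice, so p values measure the spread between these libraries.

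SLC25 proteins sit mostly in the inner mitochondrial membrane, which lets few solutes through unaided, and each exchanges or moves a small set of them. They bring ADP and phosphate to the ATP synthase and carry ATP out, pass reducing equivalents in from the cytosol through the malate-aspartate shuttle, and supply mitochondria with cofactors, amino acids, nucleotides, fatty acid carriers and iron. In brain, the family is known for glutamate and aspartate transport, which ties mitochondria to transmitter metabolism, and for carriers with calcium-binding domains on their outer side. Most carriers belong to pairs or small sets of related genes that move the same solute and differ by tissue.

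The coding sequences of the related carriers were compared, since reads of near-identical copies could not be assigned to 1 gene. The sequences shown are those around the longest stretch without a difference in the 3 pairs with the longest such stretches, read from the GENCODE M21 annotation of GRCm38 (the build also called mm10). Capitals mark the shared run, and lower case the 15 bases on each side of it in that gene.
Slc25a4: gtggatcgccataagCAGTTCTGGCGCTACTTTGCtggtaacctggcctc
Slc25a5: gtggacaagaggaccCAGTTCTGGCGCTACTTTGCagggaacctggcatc
Slc25a12: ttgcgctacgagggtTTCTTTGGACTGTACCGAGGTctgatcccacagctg
Slc25a13: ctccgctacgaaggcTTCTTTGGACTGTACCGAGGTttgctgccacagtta
Slc25a23: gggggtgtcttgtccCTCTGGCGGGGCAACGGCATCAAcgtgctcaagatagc
Slc25a25: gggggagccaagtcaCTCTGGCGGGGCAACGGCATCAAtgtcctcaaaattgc
Slc25a4 (chromosome 8) and Slc25a5 (chromosome X) encode ADP/ATP carriers over 897 coding bases each. They were identical at 77.5% of aligned coding positions, and their longest shared run was 20 bases, starting at coding base 322 in both. Slc25a12 and Slc25a13, the aspartate-glutamate carriers, were 71.5% identical with a longest run of 21 bases. Slc25a23 and Slc25a25, calcium-regulated ATP-Mg/phosphate carriers, were 69.9% identical with a run of 23 bases. Slc25a22 with Slc25a18 (13 bases), Slc25a28 with Slc25a37 (15 bases), Slc25a33 with Slc25a36 (11 bases) and Slc25a27 with Slc25a14 (8 bases) shared shorter runs. Sequence was also shared with genes outside these pairs, such as the processed pseudogenes Gm5560 and Gm5529 and the processed transcript Slc25a5-ps. Of the 50-base words of Slc25a5 transcripts, 33.8% also lay in transcripts of these or other genes. That share was 6.99% for Slc25a37, 6.70% for Slc25a36, 5.61% for Slc25a20, 3.27% for Slc25a40 and under 2% for every other member. How many reads fell on shared words was not measured, so the level of Slc25a5 is uncertain.

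The family held a wide range of levels in this tissue. Levels between genes are given as FPKM, fragments scaled to transcript length and library depth, from the authors' table. Averaged over the 19 libraries, 5 members stood at 40 FPKM or more, 9 at 10 to under 40 FPKM, 21 at 1 to under 10 FPKM, 6 at 0.1 to under 1 FPKM and 6 below 0.1 FPKM. The members summed to 490 to 526 FPKM in SCZ+c-MSST, 524 to 547 FPKM in SCZ, 522 to 576 FPKM in Control+c-MSST and 424 to 547 FPKM in Control. That was 0.201% to 0.227% of all FPKM in a library, and the 5 most abundant members made up 55.3% to 59.3% of the family's sum in every library. The lowest sum came from Control replicate 1. This library had the lowest FPKM of all 19 for 24 of the 35 members with a mean of at least 1 FPKM (68.6%), against 44.3% of all 11661 such genes. On the CPM scale (counts scaled to TMM-adjusted library size), used below to follow a gene across groups, it was the lowest for 11 of the 35 members (31.4%), against 11.4% of all such genes.

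**Figure D1:**
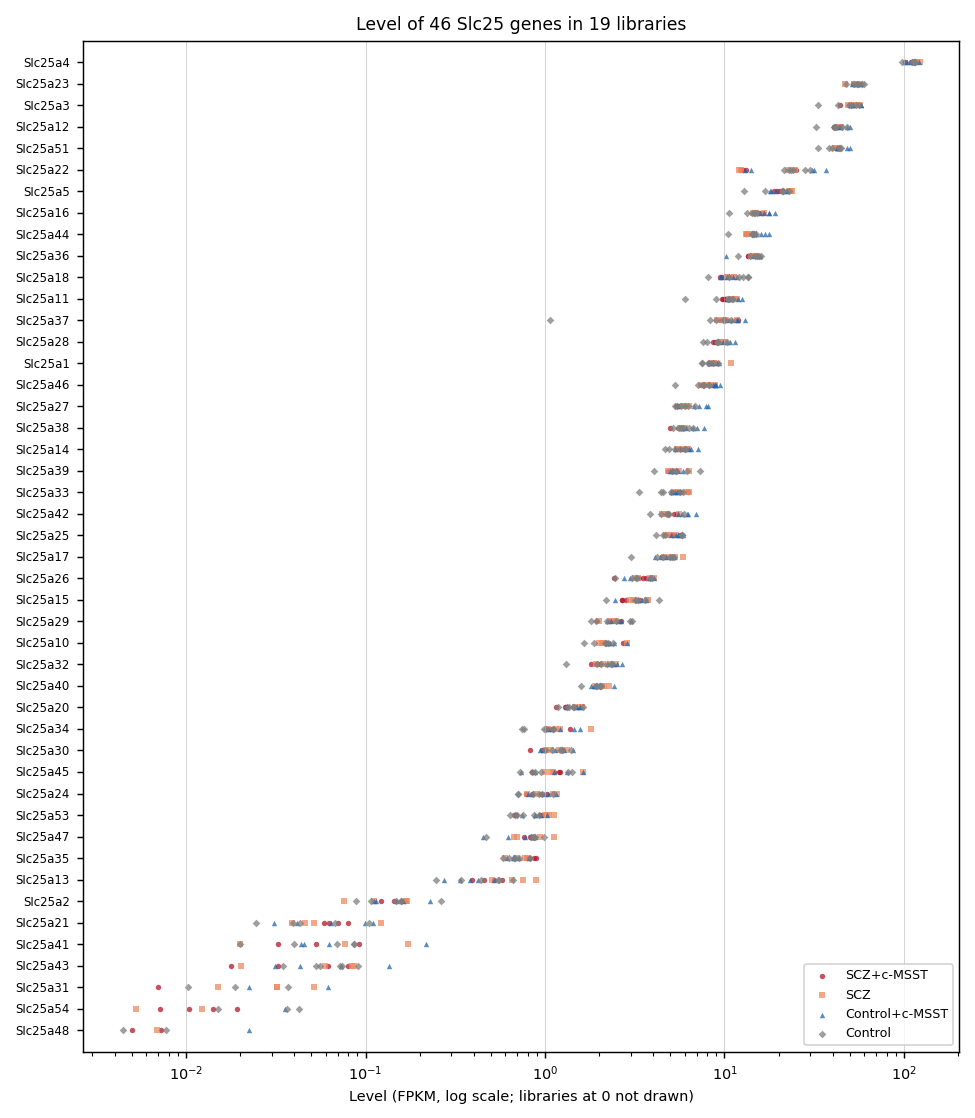
Level of each of 46 Slc25 genes (rows, ordered by mean) in FPKM on a log axis, with 1 point per library coloured by group; libraries at 0 are not drawn. Slc25a4 lies highest, at 97.2 to 122 FPKM, most members keep a narrow range, Slc25a22 and the single low library of Slc25a37 spread more widely than their neighbours in rank, and members below 0.1 FPKM spread widely too.

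Carriers of ATP and phosphate led the family. Slc25a4, the ADP/ATP carrier of muscle, heart and brain, averaged 112 ± 6.67 FPKM (SD, n = 19 libraries) and ranked above 98.4% of genes. Slc25a23 averaged 54.0 ± 3.43 FPKM and Slc25a3, which brings in phosphate, 50.8 ± 5.88 FPKM. Slc25a5, the ADP/ATP carrier of dividing cells, stood at 20.5 ± 2.73 FPKM. Slc25a25 stood at 5.22 FPKM and Slc25a24, a relative with the same solutes, at 0.93 FPKM. Slc25a41, a short relative of these carriers, averaged 0.0588 FPKM and had no count in 4 of 19 libraries. Slc25a31, the ADP/ATP carrier of mouse testis, averaged 0.0152 FPKM with counts in 10 of 19 libraries.

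Carriers of the malate-aspartate shuttle and of glutamate were next. Slc25a12 (aralar), the aspartate-glutamate carrier of brain and muscle, averaged 43.1 ± 3.77 FPKM, and Slc25a13 (citrin), that of liver, 0.50 ± 0.16 FPKM (n = 19 each). Slc25a11, which exchanges oxoglutarate for malate, stood at 10.4 FPKM, Slc25a1, which exports citrate, at 8.64 FPKM, and Slc25a10, the dicarboxylate carrier, at 2.26 FPKM. Of the glutamate carriers, Slc25a22 averaged 21.6 ± 7.83 FPKM and Slc25a18, known from astrocytes, 10.9 ± 1.41 FPKM. Slc25a21, an oxodicarboxylate carrier, averaged 0.0607 FPKM.

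Cofactor and metal carriers covered the middle of the range. Slc25a51, which brings NAD into mitochondria, averaged 42.4 ± 3.46 FPKM (n = 19). Slc25a16 stood at 15.4 FPKM and Slc25a42, a coenzyme A carrier, at 5.22 FPKM; the yeast relative of Slc25a16 is linked to coenzyme A as well. Slc25a36 (14.4 FPKM) and Slc25a33 (5.33 FPKM) move pyrimidine nucleotides. Slc25a32, the folate and FAD carrier, stood at 2.16 FPKM. The mitoferrins Slc25a37 and Slc25a28, which bring in iron, stood at 10.1 and 9.48 FPKM, and Slc25a38, a glycine carrier of haem synthesis, at 6.02 FPKM. Slc25a39 and Slc25a40, carriers of glutathione, stood at 5.39 and 2.00 FPKM, and Slc25a26, which brings in S-adenosylmethionine, at 3.39 FPKM.

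The remaining members included carriers of amino acids and of fatty acid derivatives, and members whose solutes are not given here. Slc25a44, a carrier of branched-chain amino acids, stood at 14.4 FPKM. Slc25a27 and Slc25a14, relatives of the uncoupling proteins found in brain, stood at 6.18 and 5.84 FPKM, and their relative Slc25a30 at 1.14 FPKM. The basic amino acid carriers Slc25a15, Slc25a29 and Slc25a2 stood at 3.21, 2.41 and 0.15 FPKM. Slc25a20, which exchanges carnitine and acylcarnitines, stood at 1.43 FPKM. Slc25a46, of the outer membrane, stood at 8.04 FPKM and Slc25a17, of peroxisomes, at 4.73 FPKM. Slc25a34, Slc25a45, Slc25a53, Slc25a47 and Slc25a35 lay between 0.73 and 1.15 FPKM. Slc25a43, Slc25a54 and Slc25a48 averaged 0.0581, 0.0104 and 0.00283 FPKM, with counts in 18, 10 and 6 of 19 libraries. A count of 0 allows up to 3 counts, or 0.0364 to 0.0598 CPM in these libraries, counting error alone considered.

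Neighbouring members on a chromosome did not share a level. Slc25a23 and Slc25a41 lie 2057 bases apart on chromosome 17 and averaged 54.0 and 0.0588 FPKM. Slc25a5 and Slc25a43 lie 18449 bases apart on the X chromosome and averaged 20.5 and 0.0581 FPKM. Slc25a29 and Slc25a47, 163 bases apart on chromosome 12, averaged 2.41 and 0.80 FPKM. Slc25a24 and Slc25a54, 6462 bases apart on chromosome 3, averaged 0.93 and 0.0104 FPKM.

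Promoter sequences were looked up in RefSeq's GRCm38.p6 table, which held 36 of the 47 members, as 250 bases before to 50 bases after the start. The letters of 3 motifs of factors known to act on mitochondrial genes were searched on both strands, and matches of different motifs that share bases were each counted. The NRF1 motif (GCGCA, any base, GCGC) was in 2 of 36 members (5.6%), against 5.2% of 27025 genes. The ETS motif bound by GABPA (CCGGAAG) was in 7 of 36 (19.4%), against 9.9% of all genes, and the ERR element (TCAAGGTCA) in 0 of 36, against 0.5%. The NRF1 holders, shown because they lie near opposite ends of the family's levels, were Slc25a3 at 50.8 FPKM and Slc25a31 at 0.0152 FPKM. Capitals mark the NRF1 match.
Slc25a3, chr10:91123918-91124217, minus strand: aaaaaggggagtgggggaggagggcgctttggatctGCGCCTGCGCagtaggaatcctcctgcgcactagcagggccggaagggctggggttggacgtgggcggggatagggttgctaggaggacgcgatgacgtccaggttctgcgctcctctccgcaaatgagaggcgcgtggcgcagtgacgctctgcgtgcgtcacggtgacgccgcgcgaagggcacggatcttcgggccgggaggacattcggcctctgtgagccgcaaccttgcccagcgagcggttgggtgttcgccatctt
Slc25a31, chr3:40708621-40708920, plus strand: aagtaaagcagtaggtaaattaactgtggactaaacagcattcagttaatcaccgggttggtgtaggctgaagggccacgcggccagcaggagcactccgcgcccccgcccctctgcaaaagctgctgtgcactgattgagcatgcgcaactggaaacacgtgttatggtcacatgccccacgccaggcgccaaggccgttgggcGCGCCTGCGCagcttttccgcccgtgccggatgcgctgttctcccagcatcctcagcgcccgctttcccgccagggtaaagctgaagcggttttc
A match is a run of letters in these windows and says nothing of binding in this tissue.

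Ratios within a library compare related carriers without regard to library scaling. Slc25a12 stood 87.7-fold above Slc25a13 (median over 19 libraries, range 48.7 to 182), with group medians of 84.0 in SCZ+c-MSST, 62.9 in SCZ, 114 in Control+c-MSST and 95.1 in Control. The groups overlapped. Slc25a23 stood 10.2-fold above Slc25a25 (9.10 to 13.3) and Slc25a4 5.36-fold above Slc25a5 (5.00 to 7.59). The ratio of Slc25a4 to Slc25a5 spanned 5.00 to 5.19 in SCZ, 5.26 to 5.76 in SCZ+c-MSST and 5.16 to 5.78 in Control+c-MSST. In Control it spanned 5.06 to 7.59 (median 5.37), the highest value coming from replicate 1. The uncertain level of Slc25a5 bears on this ratio as well. Slc25a27 and Slc25a14 were nearly equal (ratio 1.04, range 0.867 to 1.34), and Slc25a33 stood at 0.370 of Slc25a36 (0.281 to 0.540). Slc25a22 over Slc25a18 spanned 1.06 to 3.34, and Slc25a28 over Slc25a37 0.761 to 8.66.

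**Figure D2:**
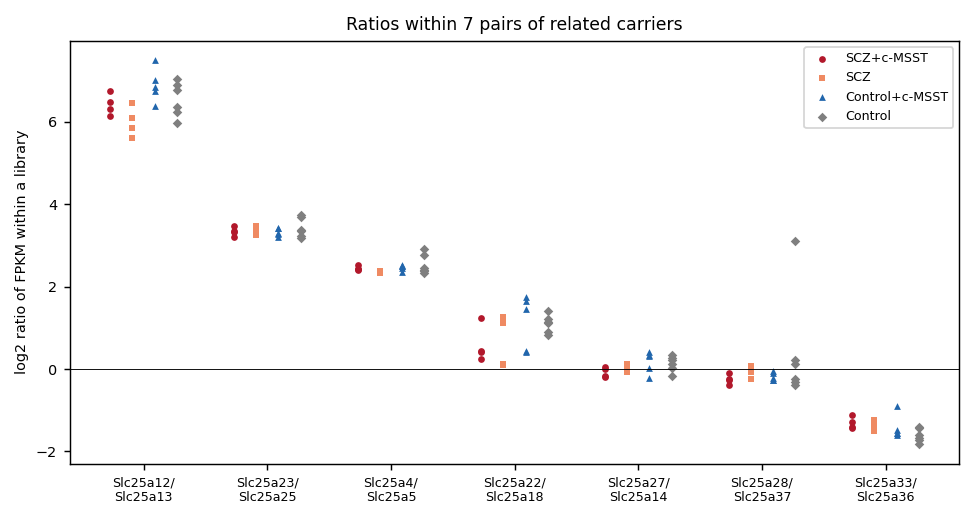
Log2 ratio of FPKM within each library for 7 pairs of related carriers, with 1 point per library and the groups side by side. Slc25a12 over Slc25a13 lies highest, at a median of 6.45, the SCZ points lie lower than most others there, and a single Control library stands at 3.12 for Slc25a28 over Slc25a37.

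Slc25a22, a mitochondrial glutamate carrier (chromosome 7, 141429744 to 141437892, minus strand, GRCm38), had levels in 2 separate bands. Its CPM was 76.2, 148, 82.2 and 79.1 in SCZ+c-MSST and 138, 73.8, 149 and 66.7 in SCZ. It was 76.2, 75.8, 192, 202 and 186 in Control+c-MSST, and 133 to 173 (median 149) in Control. Below 100 CPM lay 3 of 4 SCZ+c-MSST, 2 of 4 SCZ, 2 of 5 Control+c-MSST and 0 of 6 Control libraries, at 66.7 to 82.2 CPM; no library lay between 82.2 and 133 CPM. The range of Slc25a22 was 3.02-fold, against 1.37-fold for its neighbour Cend1 (140 to 192 CPM), 1.55-fold for Gatd1 (12.5 to 19.3 CPM) and 1.97-fold for Pidd1 (1.65 to 3.26 CPM). Its spread within groups (SD 0.51 on log2 CPM) was exceeded by that of 2.64% of the 10123 genes with a mean of at least 10 CPM. The bands were noticed after its values were seen, and no comparison of the groups passed the test. The log2 fold change was -0.50 (SE 0.32) in SCZ against Control, -0.60 (SE 0.33) in SCZ+c-MSST against Control+c-MSST, and -0.55 (SE 0.23, edgeR adjusted p = 0.237) in MK-801 against saline over both c-MSST conditions. With striatal, septal and choroid plexus marker scores as covariates, these were -0.10 (SE 0.37), -0.25 (SE 0.40) and -0.18 (SE 0.30, adjusted p = 0.965). On leaving out 1 library, that of SCZ against Control ranged from -0.70 to -0.33, the latter without SCZ replicate 5 (SE 0.33).

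Slc25a37, mitoferrin 1 (chromosome 14, 69241848 to 69285112, minus strand), had a single low library. It stood at 36.5, 33.7, 31.3 and 28.96 CPM in SCZ+c-MSST, 29.8, 26.9, 30.4 and 32.0 CPM in SCZ and 31.6, 31.4, 31.95, 34.9 and 34.9 CPM in Control+c-MSST. In Control it stood at 34.1, 25.6, 23.7, 2.98, 30.5 and 32.7 CPM, so that replicate 4 held 9.49% of the gene's median. Its paralogue Slc25a28 did not share the low value (23.4 CPM in that library, against 22.3 to 26.9 CPM in the 5 other Control libraries), nor did the neighbouring gene Entpd4, at 70.3 CPM there and 59.2 to 73.1 CPM over all libraries. Entpd4b, another neighbour, had its lowest value in that library, 2.34 CPM, in a range of 2.34 to 5.26 CPM. Of the 10123 genes with a mean of at least 10 CPM, 35 (0.346%) had any library below 10% of their median, 6 of them in Control replicate 4. The log2 fold change of Control+c-MSST against Control was 0.40 (SE 0.35) with this library and 0.17 (SE 0.09) without it, and that of SCZ against Control was 0.26 (SE 0.37) with it and 0.02 (SE 0.10) without it. Exons of Slc25a37 overlap Gm31748 and Gm27223 on the opposite strand. A strand setting for the counting step is not given in the sources used.

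**Figure D3:**
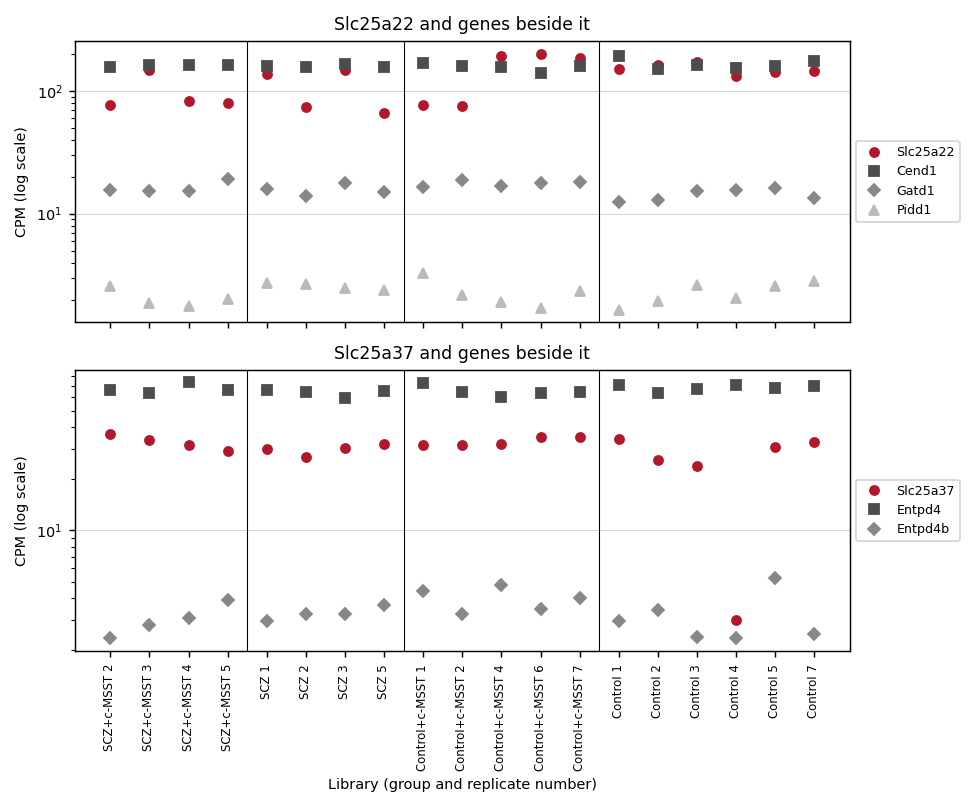
CPM (log axis) in each of the 19 libraries for Slc25a22 with its neighbours Cend1, Gatd1 and Pidd1 (top) and for Slc25a37 with Entpd4 and Entpd4b (bottom); vertical lines part the groups. Slc25a22 lies at 66.7 to 82.2 CPM in 7 libraries and 133 to 202 CPM in 12, Cend1 at 140 to 192 CPM and Pidd1 at 1.65 to 3.26 CPM, and Slc25a37 drops to 2.98 CPM in Control replicate 4.

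The spread within groups varied between members. The median within-group SD of log2 CPM was 0.14 over the 44 members tested and 0.18 over all 16417 genes tested. Among genes with a mean of at least 10 CPM it was 0.13 for 28 members and 0.12 for 10123 genes. Slc25a51 and Slc25a4 had the smallest SD of the members, at 0.05 each. The largest belonged to Slc25a41 (1.12), Slc25a21 (0.88) and Slc25a43 (0.87), all below 0.1 FPKM, followed by Slc25a37 (0.78), Slc25a22 (0.51), Slc25a2 (0.43), Slc25a13 (0.36) and Slc25a45 (0.32).

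In no comparison did a member pass the threshold of an adjusted p under 0.05 by edgeR's quasi-likelihood test, adjusted over all 16417 genes. The 3 members not tested, Slc25a31, Slc25a48 and Slc25a54, fell under the filter on low counts. Over all genes, the share called was 0.0% in SCZ against Control, in SCZ+c-MSST against Control+c-MSST, in SCZ+c-MSST against SCZ, in MK-801 against saline over both c-MSST conditions and in the interaction. It was 0.329% in Control+c-MSST against Control and 0.0122% in c-MSST against none over both injections. DESeq2, run as an alternative, called more genes. It called 1 member in SCZ against Control (2.27%, against 1.45% of all genes), 2 in Control+c-MSST against Control (4.55%, against 3.48%), 1 in MK-801 against saline (against 3.48%) and 1 in c-MSST against none (against 2.79%), each given with its value below. It called 0 members in SCZ+c-MSST against Control+c-MSST, SCZ+c-MSST against SCZ and the interaction, against 0.445%, 0.378% and 0.244% of all genes. In bulk tissue, fewer cells of a type and less RNA per cell cannot be told apart. Tissue makeup also varied: the 12 striatal markers summed to 193 to 487 FPKM in SCZ+c-MSST, 305 to 399 FPKM in SCZ, 58.0 to 318 FPKM in Control+c-MSST and 39.2 to 393 FPKM in Control. The 8 choroid plexus markers summed to 1.21 to 346 FPKM in Control and to at most 11.9 FPKM in the other groups. The 6 cortical excitatory neuron markers were present in all libraries, at a sum of 687 to 1070 FPKM, and no marker of any of the 9 lists was at 0 in every library.

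SCZ set against Control shows MK-801 mice beside saline mice, both without c-MSST. Of the 44 members, 30 had a positive log2 fold change (68.2%, against 50.1% of all genes), with a median of 0.09, against 0.00 for all genes. On leaving out 1 library the median ranged from 0.045 to 0.101. It was 0.052, 0.045 and 0.056 without SCZ replicate 1, 3 or 5, and 0.055 without Control replicate 1. An unadjusted p under 0.05 was reached by 7 members with higher values in SCZ (15.9%, against 6.09% of all genes) and by 0 with lower values (against 7.43%). Slc25a53, whose solute is not given here, had the smallest p. It stood at 7.16, 7.21, 7.64 and 6.33 CPM in SCZ and at 4.45 to 6.07 CPM (median 5.46) in Control. All SCZ libraries lay above all Control libraries, at a log2 fold change of 0.43 (SE 0.12, edgeR adjusted p = 0.165), and DESeq2 called it (adjusted p = 0.0493). Groups did not overlap for 2 members with higher values in SCZ (4.55%, against 1.6% of all genes), Slc25a53 and Slc25a11, and for 0 with lower values (against 1.25%). Tissue markers differed in the same comparison. The 6 excitatory neuron markers all had lower values in SCZ (median log2 fold change -0.32, 3 at an unadjusted p under 0.05). The 12 striatal markers all had higher values (1.19, 1 at that p). The 8 choroid plexus markers all had negative log2 fold changes (-1.80, 4 at that p). Their sum was 4.07 to 11.9 FPKM (median 5.2) in SCZ and 1.21 to 346 FPKM (median 4.53) in Control. Their negative fold changes thus came from the highest Control libraries, and the SCZ median was not lower. The part of the excitatory markers in the members' values was not tested.

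Slc25a5, the ADP/ATP carrier of dividing cells, stood at 136, 133, 137 and 126 CPM in SCZ and at 86.9 to 126 CPM (median 117) in Control. The highest Control value, 126.0 CPM, lay just above the lowest SCZ value, 125.8 CPM, so the groups overlapped. The log2 fold change was 0.25 (SE 0.09, edgeR adjusted p = 0.228). Slc25a33, which carries pyrimidine nucleotides and is induced by insulin-like growth factor signalling in cultured cells, stood at 17.5, 19.95, 17.6 and 19.1 CPM in SCZ. It stood at 12.8 to 18.1 CPM (median 15.4) in Control, which overlapped SCZ, and its log2 fold change was 0.24 (SE 0.09, edgeR adjusted p = 0.250). Without Control replicate 1, the lowest library for both, the log2 fold changes of Slc25a5 and Slc25a33 were each 0.19. The other members with an unadjusted p under 0.05 were Slc25a13, Slc25a34, Slc25a1 and Slc25a11, named after their values were seen.

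The same question with c-MSST in both arms compares SCZ+c-MSST with Control+c-MSST. Positive and negative members were even, at 22 and 22 (49.9% of all genes were positive), with a median of 0.00 on the log2 scale (-0.03 to 0.02 on leaving out 1 library). At an unadjusted p under 0.05 stood 3 members with higher and 3 with lower values in SCZ+c-MSST (6.82% each, against 5.46% and 5.51% of all genes). Slc25a35 stood at 6.80, 5.76, 6.69 and 6.28 CPM in SCZ+c-MSST and at 4.86, 5.41, 4.61, 4.47 and 5.31 CPM in Control+c-MSST. The groups did not overlap, and the log2 fold change was 0.37 (SE 0.11, edgeR adjusted p = 0.305). Slc25a32, the folate and FAD carrier, stood at 10.0, 9.13, 8.95 and 9.48 CPM in SCZ+c-MSST and at 11.7, 11.4, 10.7, 10.6 and 11.2 CPM in Control+c-MSST. All SCZ+c-MSST libraries lay lower (log2 fold change -0.24, SE 0.10, adjusted p = 0.410). Slc25a27, the brain relative of uncoupling proteins, stood at 20.2, 20.3, 19.5 and 19.7 CPM in SCZ+c-MSST and at 18.6, 25.4, 27.8, 23.1 and 23.7 CPM in Control+c-MSST (log2 fold change -0.25, SE 0.09, adjusted p = 0.353). A single Control+c-MSST library lay below the SCZ+c-MSST range. Groups did not overlap for 1 member in each direction, against 2.3% of all genes with higher and 2.36% with lower values in SCZ+c-MSST. All 12 striatal markers (median log2 fold change 1.13) and all 10 myelin markers (0.40) had higher values in SCZ+c-MSST, and all 6 excitatory neuron markers lower ones (-0.16). Of these, 0 striatal, 2 myelin and 1 excitatory marker stood at an unadjusted p under 0.05.

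Over both c-MSST conditions, MK-801 against saline gave 28 positive and 16 negative members (63.6% positive, against 49.6% of all genes) with a median of 0.01 (0.006 to 0.026 on leaving out 1 library), and 8 members with higher and 2 with lower values at an unadjusted p under 0.05 (18.2% and 4.55%, against 8.1% and 8.52% of all genes). Slc25a33 had the smallest p, with 17.1, 17.9, 19.3 and 21.1 CPM in SCZ+c-MSST and 16.6, 14.7, 17.8, 16.2 and 16.9 CPM in Control+c-MSST, beside the SCZ and Control values above. Its log2 fold change was 0.22 (SE 0.06, edgeR adjusted p = 0.108), and DESeq2 called it (adjusted p = 0.0431). Slc25a13, citrin, stood at 3.21, 3.45, 4.02 and 2.76 CPM in SCZ+c-MSST and at 6.12, 3.40, 4.42 and 4.71 CPM in SCZ. It stood at 3.41, 2.55, 2.62, 1.69 and 2.28 CPM in Control+c-MSST and at 1.94 to 4.20 CPM (median 3.21) in Control, and the MK-801 and saline libraries overlapped. Its log2 fold change was 0.50 (SE 0.16, adjusted p = 0.135), and 0.24 (SE 0.15) with the 3 tissue scores as covariates. For Slc25a5 the difference was 0.18 on the log2 scale (SE 0.06, adjusted p = 0.159), and 0.11 (SE 0.07) with those scores. Striatal marker scores were higher with MK-801, at medians of 0.84 in SCZ+c-MSST and 1.08 in SCZ, against -0.81 in Control+c-MSST and -0.62 in Control. The 6 excitatory neuron markers all had lower values with MK-801 (median log2 fold change -0.23, 4 at an unadjusted p under 0.05), and their part in these results was not tested.

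**Figure D4:**
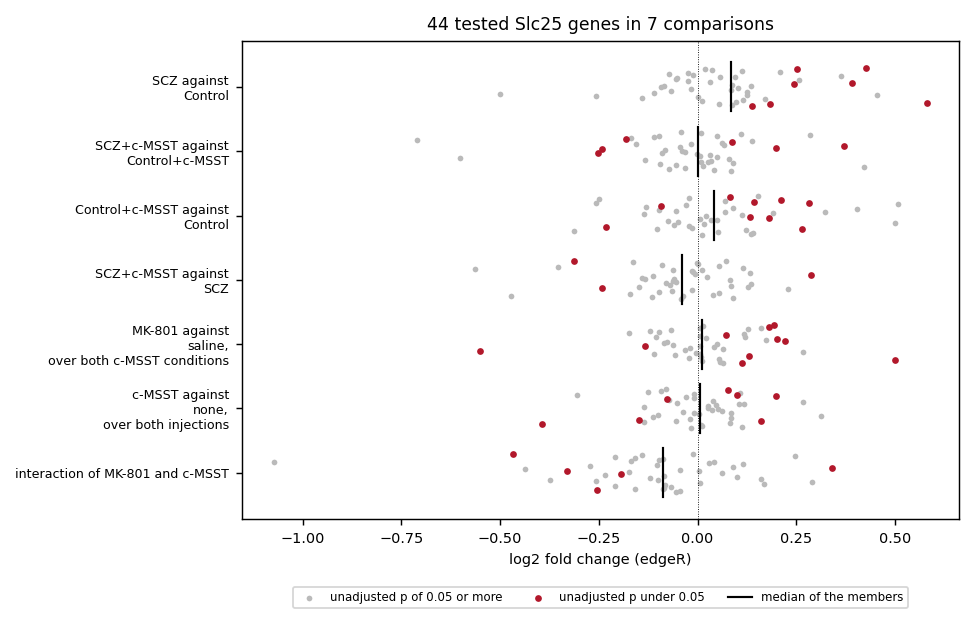
Log2 fold change of the 44 tested members (points) in each of the 7 comparisons, with members at an unadjusted p under 0.05 in red and the members' median as a bar. The bar lies at 0.09 for SCZ against Control and at -0.09 for the interaction, and most points lie within 0.25 of 0.

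Control+c-MSST set against Control shows saline mice with c-MSST beside those without it, and this comparison held the smallest adjusted p values of the family. Positive members numbered 27 of 44 (61.4%, against 47.1% of all genes), with a median of 0.04, against -0.01 for all genes. The median was 0.024 without Control+c-MSST replicate 4 or Control replicate 1, 0.067 without Control replicate 3 and 0.102 without Control replicates 2 and 3. It was 0.085 with the 3 tissue scores as covariates, and 0.118 by limma on log2 FPKM with a pseudocount of 0.1, where the median of all genes was 0.064. An unadjusted p under 0.05 was reached by 7 members with higher values in Control+c-MSST (15.9%, against 7.86% of all genes) and 2 with lower values (4.55%, against 8.7%). Slc25a16 stood at 37.3, 38.5, 41.0, 42.5 and 43.0 CPM in Control+c-MSST and at 30.1 to 37.8 CPM (median 34.1) in Control. A single Control library lay within the Control+c-MSST range. Groups did not overlap for 0 members in either direction, against 0.847% of all genes with higher and 0.755% with lower values in Control+c-MSST. The log2 fold change was 0.26 (SE 0.07, edgeR adjusted p = 0.0746), and DESeq2 called it (adjusted p = 0.0149).

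Slc25a42, the coenzyme A carrier, stood at 34.0, 35.3, 37.6, 40.1 and 40.1 CPM in Control+c-MSST. In Control it stood at 28.7, 29.4, 29.6, 29.7 and 28.9 CPM in replicates 1 to 5 and at 38.3 CPM in replicate 7. That library lay within the Control+c-MSST range and the others below it. The log2 fold change was 0.28 (SE 0.07, edgeR adjusted p = 0.0833), and 0.35 (SE 0.06, adjusted p = 0.0123) without Control replicate 7; DESeq2 called it with all libraries (adjusted p = 0.0231). With the 3 tissue scores as covariates, the log2 fold changes of Slc25a16 and Slc25a42 were 0.22 (SE 0.08) and 0.19 (SE 0.08). Myelin markers also differed: all 10 had lower values in Control+c-MSST (median log2 fold change -0.57, 9 at an unadjusted p under 0.05), as did all 8 choroid plexus markers (-3.90, 8 at that p) and all 7 septal markers (-0.66, 3 at that p). With the myelin score as a covariate, the log2 fold changes of Slc25a16 and Slc25a42 were 0.22 (SE 0.08, adjusted p = 0.519) and 0.21 (SE 0.09, adjusted p = 0.552). Slc25a18, the glutamate carrier known from astrocytes, stood at 22.6, 22.1, 22.8, 25.6 and 26.8 CPM in Control+c-MSST and at 22.6 to 32.7 CPM (median 28.2) in Control. The groups overlapped, and the log2 fold change was -0.23 (SE 0.08, adjusted p = 0.155). The score of 6 astrocyte markers had medians of -0.13 in Control+c-MSST and 0.13 in Control, and its part in the result was not tested. Exons of Slc25a18 overlap Atp6v1e1 on the opposite strand. Overlaps of this kind also exist for other members, among them Slc25a11 (Rnf167), Slc25a25 (Naif1), Slc25a33 (Gm13068) and Slc25a35 (Rangrf).

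**Figure D5:**
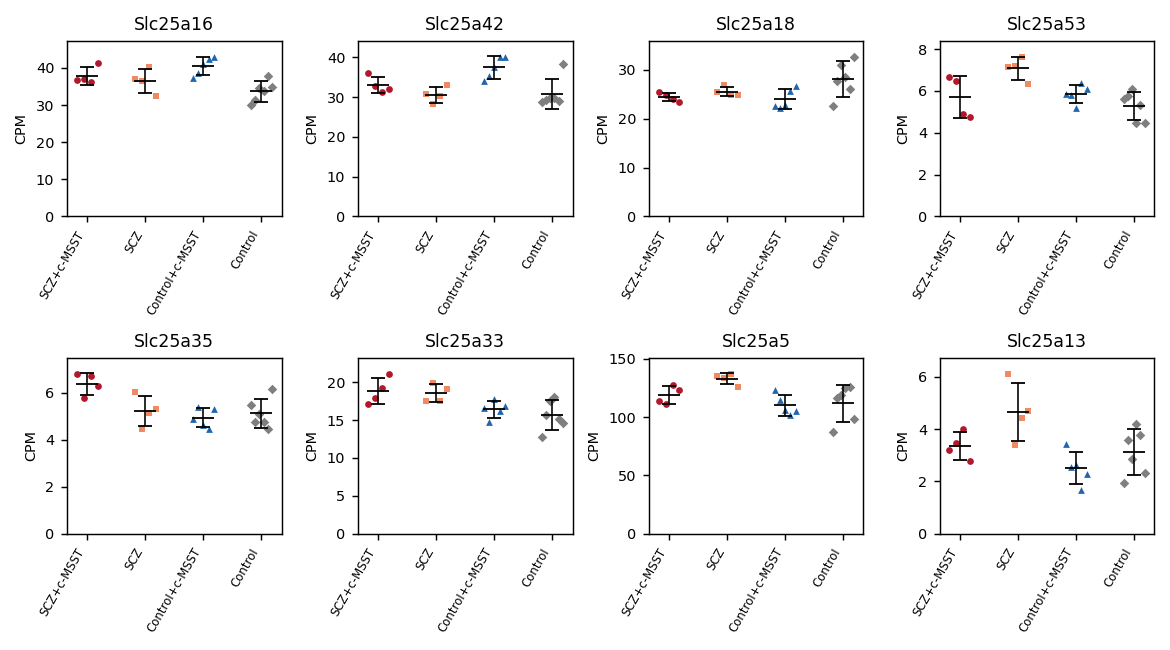
CPM of 8 members with the smallest p values, in 4 groups, with 1 point per library and bars for the mean and SD. Slc25a16 and Slc25a42 lie highest in Control+c-MSST, with the high Control point of Slc25a42 at 38.3 CPM, Slc25a53 lies highest in SCZ, and Slc25a35 in SCZ+c-MSST.

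In MK-801 mice, SCZ+c-MSST against SCZ gave 16 positive and 28 negative members (36.4% positive, against 47.4% of all genes) with a median of -0.04, against -0.01 for all genes. On leaving out 1 library the median ranged from -0.049 to -0.007. It was -0.017 and -0.013 without SCZ+c-MSST replicate 3 or 4, -0.013 and -0.007 without SCZ replicate 1 or 3, and -0.008 with the 3 tissue scores as covariates. All 7 septal markers (median log2 fold change -1.04) and all 10 myelin markers (-0.26) had lower values in SCZ+c-MSST, and all 6 excitatory neuron markers higher ones (0.21). Of these, 5 septal, 0 myelin and 2 excitatory markers stood at an unadjusted p under 0.05. An unadjusted p under 0.05 was reached by 1 member with higher and 2 with lower values in SCZ+c-MSST (2.27% and 4.55%, against 3.86% and 3.7% of all genes). Groups did not overlap for 1 member in each direction, Slc25a25 with higher and Slc25a11 with lower values, against 4.5% and 3.78% of all genes. The smallest p belonged to Slc25a35 at 0.29 on the log2 scale (SE 0.12, edgeR adjusted p = 0.603). In SCZ it had 6.02, 4.44, 5.13 and 5.32 CPM, beside the SCZ+c-MSST values above, so that the groups overlapped. With the 3 tissue scores as covariates its log2 fold change was 0.11 (SE 0.15). Slc25a53 stood at 6.65, 6.49, 4.92 and 4.77 CPM in SCZ+c-MSST (log2 fold change -0.31, SE 0.13, adjusted p = 0.608). Slc25a20, the carnitine-acylcarnitine carrier, stood at 6.26, 6.70, 7.17 and 7.27 CPM in SCZ+c-MSST and at 8.62, 8.44, 8.21 and 7.13 CPM in SCZ (log2 fold change -0.24, SE 0.11, adjusted p = 0.643). Slc25a16 and Slc25a42 stood at 36.3 to 41.4 and 31.4 to 36.0 CPM in SCZ+c-MSST, and at 32.4 to 40.1 and 28.3 to 32.9 CPM in SCZ.

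Over both injections, c-MSST against none gave 23 positive and 21 negative members (52.3% positive, against 46.3% of all genes) with a median of 0.01 (-0.008 to 0.026 on leaving out 1 library). At an unadjusted p under 0.05 stood 4 members with higher and 3 with lower values (9.09% and 6.82%, against 7.89% and 7.95% of all genes). The log2 fold change of Slc25a42 came to 0.20 (SE 0.06, edgeR adjusted p = 0.124), and to 0.23 (adjusted p = 0.0257) without Control replicate 7, and DESeq2 called it with all libraries (adjusted p = 0.0439). It came to 0.12 (SE 0.07, adjusted p = 0.732) with the 3 tissue scores and to 0.15 (SE 0.06, adjusted p = 0.542) with the myelin score as a covariate. All 10 myelin markers had lower values with c-MSST (median log2 fold change -0.41, 8 at an unadjusted p under 0.05). Lower values were also found for all 8 choroid plexus markers (-2.23, 6 at that p) and all 7 septal markers (-0.67, 5 at that p). Of the 6 excitatory neuron markers, 5 had higher and 1 lower values (median 0.20, 4 higher at that p). The log2 fold change of Slc25a16 came to 0.16 (SE 0.05, adjusted p = 0.147). That of Slc25a4, the most abundant member, came to -0.08 (SE 0.03, adjusted p = 0.197), with means of 264 ± 10.5 CPM (SD) in the 4 SCZ+c-MSST libraries and 275 ± 6.02 CPM in the 4 of SCZ. In saline mice its means were 248 ± 10.6 CPM in the 5 Control+c-MSST libraries and 264 ± 7.43 CPM in the 6 of Control.

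The interaction takes the log2 fold change of SCZ+c-MSST over SCZ and subtracts that of Control+c-MSST over Control. It was positive for 13 and negative for 31 members. Its median was -0.09 over the members and 0.00 over all genes, and 29.5% of members and 50.3% of all genes were positive. On leaving out 1 library the members' median ranged from -0.104 to -0.057, the latter without SCZ replicate 5. It was -0.050 by limma voom, and -0.218 by limma on log2 FPKM with a pseudocount of 0.1, where the median of all genes was -0.125. There was 1 member with a positive and 4 with a negative value at an unadjusted p under 0.05 (2.27% and 9.09%, against 3.9% and 3.39% of all genes). Slc25a53 had the smallest p (-0.47 on the log2 scale, SE 0.17, edgeR adjusted p = 0.605), followed by Slc25a28 (-0.19, SE 0.08, adjusted p = 0.628) and Slc25a32 (-0.33, SE 0.14, adjusted p = 0.645). Slc25a28, mitoferrin 2, averaged 24.9 ± 0.63 CPM (SD) in the 4 SCZ+c-MSST libraries and 26.0 ± 1.06 CPM in the 4 of SCZ. Its means were 26.6 ± 0.94 CPM in the 5 Control+c-MSST libraries and 24.2 ± 1.59 CPM in the 6 of Control. The other mitoferrin, Slc25a37, averaged 32.6 ± 3.22 CPM in SCZ+c-MSST and 29.8 ± 2.13 CPM in SCZ, and these groups overlapped. All 5 erythroid markers also had higher values in SCZ+c-MSST than in SCZ (median log2 fold change 1.85, 2 at an unadjusted p under 0.05). Their scores overlapped between these groups, at -1.39 to 2.13 in SCZ+c-MSST and -1.12 to 0.76 in SCZ. Ferumoxytol contains iron. The part of ferumoxytol or of erythroid cells in the level of either mitoferrin was not tested. The comparisons share libraries, so their counts are not independent of each other.

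Genes that work with the carriers were followed in 9 lists of 52 genes, 51 of them tested: proteins of the same family under other symbols, pyruvate carriers, outer membrane channels, the calcium uniporter, the import machinery for carriers, shuttle enzymes for malate-aspartate and carnitine, sideroflexins and regulators of mitochondrial biogenesis. By edgeR, 0 of the 51 were called in each of the 7 comparisons. At an unadjusted p under 0.05 stood 7 with higher and 0 with lower values in SCZ against Control (13.7% and 0.0%, against 6.09% and 7.43% of all genes), and 7 and 0 in MK-801 against saline (13.7% and 0.0%, against 8.1% and 8.52%). The counts were 4 and 0 in SCZ+c-MSST against Control+c-MSST (7.84% and 0.0%, against 5.46% and 5.51%) and 3 and 6 in Control+c-MSST against Control (5.88% and 11.8%, against 7.86% and 8.7%). They were 2 and 1 in SCZ+c-MSST against SCZ (3.92% and 2.0%, against 3.86% and 3.7%), 0 and 5 in c-MSST against none (0.0% and 9.80%, against 7.89% and 7.95%) and 2 and 2 in the interaction (3.92% each, against 3.9% and 3.39%).

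The 2 most abundant genes of each list, 18 in all, had 12 positive and 6 negative log2 fold changes in SCZ against Control. These lay at -0.11 to 0.15 with a median of 0.05. Of all genes, 50.1% were positive, and 6.09% with higher and 7.43% with lower values stood at an unadjusted p under 0.05. Of the 18, 4 stood at that p, each with higher values. These were Vdac1, the outer membrane channel (159 FPKM; log2 fold change 0.14, SE 0.05, adjusted p = 0.213), Tomm20, an import receptor (148 FPKM; 0.15, SE 0.05, adjusted p = 0.206), Mtch1, an outer membrane protein of the SLC25 family (23.8 FPKM; 0.12, SE 0.04, adjusted p = 0.188), and Mpc1, of the pyruvate carrier (14.9 FPKM; 0.14, SE 0.06, adjusted p = 0.357). Other log2 fold changes were 0.14 for Mpc2, 0.08 for Tomm40, 0.06 for Mdh1, 0.05 for Vdac2, 0.04 for Mtch2, 0.04 for Sfxn3 and 0.01 for Got2. They were -0.02 for Sfxn5 and Ppargc1b, -0.05 for Cpt1a and Cpt1c, -0.06 for Micu3 and -0.11 for Ppargc1a, a coactivator that drives mitochondrial biogenesis. In SCZ+c-MSST against Control+c-MSST, 14 of the 18 were positive (median 0.04), against 49.9% of all genes. There the log2 fold changes were 0.02 for Vdac1, 0.05 for Tomm20, 0.03 for Mtch1 and 0.10 for Mpc1, none at an unadjusted p under 0.05.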

How the data were processed

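The authors deposited 1 table of estimated counts per gene and 1 of FPKM values, each with 20938 genes and 19 libraries. The deposited counts were whole numbers, so none was rounded. The submitters' processing notes list the aligner STAR 2.7.7a, the assembler StringTie 1.3.5, fastp 0.19.5 and Picard 2.18.29, and build mm10; order, annotation and strand setting are not given in the sources used. Per the labels' protocols, total RNA was made into stranded libraries. In the authors' FPKM table, values are per gene length and depth. Totals were 66828543 to 75090222 counts in SCZ+c-MSST, 65498768 to 82416746 in SCZ, 60577337 to 72866386 in Control+c-MSST and 50140626 to 66818266 in Control; intervals and floors cover counting error only.

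Groups were taken from the labels. Counts were filtered with filterByExpr (16417 genes), normalized by TMM and fitted with edgeR 4.0.16 (glmQLFit, robust; R 4.3.3), with 1 coefficient per group. The 7 contrasts were tested with glmQLFTest and adjusted by Benjamini and Hochberg over all genes. SE is the log2 fold change divided by the square root of F. The code was tested on simulated data with 200 changed genes of 16417: for MK-801 against saline, 93% of those changed 2-fold and 80% of those changed 1.5-fold were recovered; for SCZ against Control these were 85% and 59%, and for SCZ+c-MSST against Control+c-MSST 79% and 62%. In that order, 9, 6 and 2 unchanged genes were called in these contrasts. No change with c-MSST and none smaller than 1.5-fold was simulated. Genes of the lowest levels were not among those changed, and tissue makeup did not vary between simulated libraries.

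Values with a test are given for the 3 members with the smallest p in each contrast; Slc25a22 and Slc25a37 were added after their values were seen. For partner lists, the genes named are the 2 highest of each list. Members and lists were chosen with earlier results of these data known. Alternatives were DESeq2 1.42.0, limma 3.58.1 (voom, and on log2 FPKM with pseudocounts of 1 and 0.1), other size factors and filters, contrast-only libraries, the replicate number, marker scores, and leaving out each library; leaving out Control replicates 2 and 3 together, which held choroid plexus markers, was chosen after seeing the data. Slc25a52 was not analysed here, and the values of 1 member and 1 partner gene are not reported here.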

Additional observations from a re-analysis of the deposited data

Results flagged for a closer look

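Within each group of 4 to 6 libraries, the CPM of every tested member was checked for a highest or lowest library that stood apart from the rest by Dixon's criterion. Of 176 such checks, 13 passed, where chance gives about 1 in 20, or 8.8. The Slc25a22 value of SCZ+c-MSST replicate 3, 148 CPM, stood above the others of its group at 76.2 to 82.2 CPM. The Slc25a37 value of Control replicate 4, 2.98 CPM, stood below the others at 23.7 to 34.1 CPM. The Slc25a42 value of Control replicate 7, 38.3 CPM, stood above the others at 28.7 to 29.7 CPM.

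The remaining values stood apart as follows. In SCZ+c-MSST, replicate 4 was high for Slc25a15 (10.4 CPM, others 8.22 to 8.30), replicate 5 for Slc25a16 (41.4 CPM, others 36.3 to 37.0) and replicate 2 for Slc25a17 (25.4 CPM, others 22.9 to 23.2), and replicate 3 was low for Slc25a51 (116 CPM, others 119 to 120.0). In SCZ, replicate 5 was high for Slc25a1 (33.2 CPM, others 28.9 to 29.3) and Slc25a21 (0.685 CPM, others 0.257 to 0.330) and low for Slc25a12 (139 CPM, others 151 to 153). In that group, replicate 1 was low for Slc25a25 (60.8 CPM, others 62.5 to 62.6) and replicate 3 high for Slc25a45 (4.57 CPM, others 2.87 to 3.03). In Control+c-MSST, replicate 7 was low for Slc25a15 (7.33 CPM, others 9.31 to 9.87).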

How the results depend on the processing

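Over 32 alternatives, 19 of which left out 1 library each, the 26 fold changes named with a test gave 822 values: 812 kept direction and side of the threshold, 10 passed it, and 0 reversed. The number of members called, 0 by edgeR in all 7 comparisons, was 1 by DESeq2 in SCZ against Control, 2 in Control+c-MSST against Control, 1 in MK-801 against saline and 1 in c-MSST against none. It was 1 in Control+c-MSST against Control by limma on log2 FPKM with a pseudocount of 1 or 0.1 (Slc25a16, adjusted p = 0.0397 and 0.0398). These fits called 259 and 250 of all 16406 genes in that comparison. By limma voom, 1 member was called in c-MSST against none (Slc25a42, adjusted p = 0.0419). Leaving out 1 library gave 0 to 1 called members in Control+c-MSST against Control and in c-MSST against none, and 0 to 0 in the others; the 1 was Slc25a42 without Control replicate 7. The cause of these differences between tools was not tested. DESeq2 called 238, 73, 571, 62, 571, 458 and 40 genes in all, for MK-801 without c-MSST, MK-801 with it, c-MSST in saline mice, c-MSST in MK-801 mice, MK-801 pooled, c-MSST pooled and the interaction, in that order, against 0, 0, 54, 0, 0, 2 and 0 by edgeR. Limma voom called 2, 40, 25, 46, 189, 283 and 0. Without Control replicate 7, edgeR called 314 genes in Control+c-MSST against Control and 223 in c-MSST against none. Same-numbered libraries did not deviate together: of 19 pairs, 1 had a correlation over 0.1 and the mean was -0.002. With the replicate block, 0 members were called in all 7 comparisons. Members under about 1 CPM are limited by depth, with a median of 6 counts for Slc25a41.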
